A study of Mus musculus with 15 samples.

Results

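Described here are 10 genes of the Notch pathway in mouse small intestinal organoids: the ligands Dll1, Dll4, Jag1 and Jag2, the receptors Notch1, Notch2 and Notch3, and the target genes Hes1, Hey1 and Nrarp. They were chosen by name and make up 10 of the 78298 genes in the deposited count tables. Each matched 1 row. The 15 libraries of poly-A RNA came from 5 conditions with 3 libraries per condition. All organoids were epithelial cultures grown from small intestinal crypts of female mice bred with C57BL/6J and aged 8 to 16 weeks, and all carried a lentiviral transgene under the weak L30 promoter with puromycin resistance, so that the control was itself a transduced and selected line. Halo-NLS, the control, expressed the HaloTag with a nuclear localization signal. SOX9-Halo and SOX9-mEGFP organoids expressed Sox9, a transcription factor of the intestinal crypt, fused to the HaloTag or to the fluorescent protein mEGFP. Both SOX9 lines were sequenced at an earlier stage with the usual budding morphology (SOX9-Halo_budding and SOX9-mEGFP_budding) and at a later passage as round spheroids (SOX9-Halo_spheroid and SOX9-mEGFP_spheroid). The spheroids carried a second transgene, H2B-mEGFP with Zeocin resistance in the SOX9-Halo line and H2B-mScarletI with neomycin resistance in the SOX9-mEGFP line. Morphology, passage and second transgene therefore cannot be told apart. The organoids of 6 wells were pooled 5 days after seeding. The libraries are described as biological replicates, and nothing says that they came from separately transduced lines.

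Notch receptors and their ligands are both membrane proteins, and signalling passes between cells that touch. A ligand on one cell makes the receptor on its neighbour open to cleavage by ADAM proteases and gamma-secretase, and the freed intracellular part enters the nucleus, joins the DNA-binding protein RBPJ and switches on targets such as Hes1. In the intestinal crypt, DLL1 and DLL4 on secretory cells signal to NOTCH1 and NOTCH2 on stem and progenitor cells, where HES1 represses the secretory regulator ATOH1. The JAG ligands and NOTCH3 are better known from other tissues, NOTCH3 from the smooth muscle and pericytes of blood vessels.

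Between 28062722 and 40559766 reads per library were counted on genes (median 33491297). All 6 epithelial markers checked were detected in every library, with a summed normalized count of 151620 to 317700, whereas the sums were 1.18 to 52.8 for 5 endothelial markers, 18.0 to 101 for 6 mesenchymal markers, 2.84 to 128 for 5 markers of blood and immune cells and 2.30 to 43.9 for 4 markers of glia and neurons. The proliferation marker Mki67 had 578 to 8451 normalized counts, with overlap between all conditions. The intestinal factor Cdx2 had between 82 and 105 counts in the SOX9-Halo spheroid libraries, against 2169 or more in every other library. Sox9 itself had normalized counts of 305, 515 and 769 in the Halo-NLS libraries and 1336 to 23654 in the 12 SOX9 libraries, the lowest of them SOX9-Halo_budding replicate 1. Counts per gene do not separate transgene reads from endogenous Sox9 reads. The Halo-NLS libraries stood apart by transcript length. For 3817 genes with more than 8 kb of exon, the median log2 deviation from the mean of all libraries was -0.10, -0.33 and -0.76 in the Halo-NLS libraries and between 0.00 and 0.25 in all others, and genes under 1.5 kb went the other way. Notch1, Notch2 and Notch3 have 14.2, 11.3 and 9.01 kb of annotated exon, and their comparisons with Halo-NLS are given together with a fit from which the length trend was removed, an alternative chosen after seeing the data. In these bulk libraries, fewer cells of a type and less RNA per cell cannot be told apart.

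**Figure D1:**
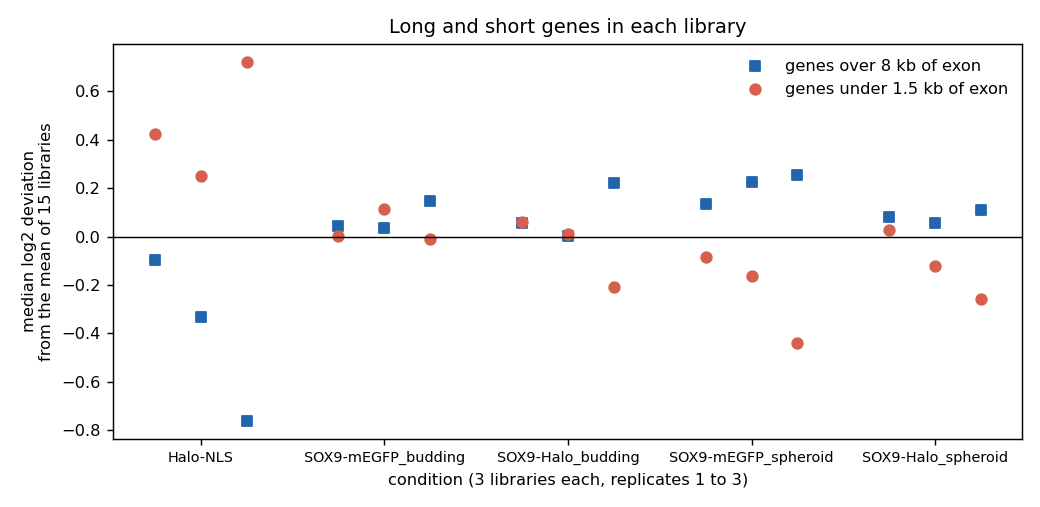
Median log2 deviation of genes over 8 kb (squares) and under 1.5 kb of exon (circles) from the mean of all libraries, 1 pair of points per library, grouped by condition on the x axis. The 3 Halo-NLS libraries lie below 0 for long genes and above 0 for short genes, the farthest being replicate 3 at -0.76 and 0.72.

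The promoters of the target genes Hes1 and Nrarp and of the ligand and the receptor with the widest ranges of levels were read from the GRCm39 genome as the 250 bases before the start of the canonical transcript, 5′ to 3′ on the strand of the gene. Capitals mark the core RBPJ motif TGGGAA and the SOX motifs AACAAT and ACAATG, each searched on both strands.
Hes1 (chr16:29883877-29884126, plus strand): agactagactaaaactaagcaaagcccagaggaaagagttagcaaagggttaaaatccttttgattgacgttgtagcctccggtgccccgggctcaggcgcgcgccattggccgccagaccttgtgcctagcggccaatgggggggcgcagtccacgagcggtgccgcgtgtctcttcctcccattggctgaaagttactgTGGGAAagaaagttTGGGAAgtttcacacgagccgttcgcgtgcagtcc
Nrarp (chr2:25070520-25070769, plus strand): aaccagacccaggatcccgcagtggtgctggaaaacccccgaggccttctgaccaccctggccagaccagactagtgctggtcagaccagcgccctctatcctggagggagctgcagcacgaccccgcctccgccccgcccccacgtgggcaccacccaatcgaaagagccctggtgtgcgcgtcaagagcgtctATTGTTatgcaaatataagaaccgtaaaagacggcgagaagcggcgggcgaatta
Dll4 (chr2:119155920-119156169, plus strand): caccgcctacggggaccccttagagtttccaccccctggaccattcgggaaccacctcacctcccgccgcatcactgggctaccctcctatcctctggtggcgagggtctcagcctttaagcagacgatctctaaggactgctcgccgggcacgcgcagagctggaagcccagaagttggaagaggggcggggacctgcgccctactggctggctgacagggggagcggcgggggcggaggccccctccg
Notch3 (chr17:32385894-32386143, minus strand): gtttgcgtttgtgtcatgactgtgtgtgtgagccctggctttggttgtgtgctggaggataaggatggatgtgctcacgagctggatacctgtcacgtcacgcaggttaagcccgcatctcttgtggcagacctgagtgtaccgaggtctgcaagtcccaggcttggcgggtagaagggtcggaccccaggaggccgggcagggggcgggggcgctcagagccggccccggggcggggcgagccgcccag
Hes1 held TGGGAA at 2 places, 49 and 35 bases before the start. Nrarp had no RBPJ core in this window and held the reverse complement of a SOX motif, ATTGTT, 55 bases before the start. Dll4 and Notch3 held neither. Of the other members searched, Jag1 held AACAAT 20 bases before the start, and Dll1, Jag2, Notch1 and Notch2 held neither motif. These letters are common: of 21757 promoters of protein-coding genes of the same length, 22.7% held the RBPJ core and 15.5% a SOX motif. A match is a description of the sequence and was not tested for binding.

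Across the series, the ligands Dll1 and Dll4 fell in both kinds of spheroid relative to budding organoids, and the ligand Jag2 and the receptor Notch3 rose. The target Nrarp fell in SOX9-mEGFP_spheroid, and Hes1 was lower in every spheroid library than in every other library. Tests were made with the quasi-likelihood F-test of edgeR, and p-values were adjusted by the Benjamini-Hochberg procedure over the 17560 genes tested. A gene counts as called, and as having risen or fallen, where its adjusted p did not exceed 0.01, its level changed by a factor of 2 or more and its normalized count averaged 10 or more. Of the 10 members, 9 passed the filter on low counts and Hey1 did not. In SOX9-mEGFP_budding relative to Halo-NLS, 0 of 9 tested members were called by edgeR and 0 by DESeq2, where edgeR called 2.76% of all genes tested, and 3 members had an unadjusted p under 0.05. In SOX9-Halo_budding relative to Halo-NLS, 1 member was called, Jag2 (3.75% of all genes). In SOX9-mEGFP_spheroid relative to Halo-NLS, 1 member was higher (15.3% of all genes) and 3 were lower (12.1% of all genes), with a median log2 fold change of -0.20 over the 9 members and 0.03 over all genes. In SOX9-Halo_spheroid relative to Halo-NLS, 2 were higher (13.6% of all genes) and 2 lower (15.3% of all genes), with medians of 0.38 and -0.01. These 4 comparisons share the Halo-NLS libraries. Within the SOX9-mEGFP line, spheroids relative to budding organoids had 2 members higher (8.55% of all genes) and 3 lower (7.88% of all genes), with medians of -0.55 and -0.04. Within the SOX9-Halo line 2 members were higher (10.5% of all genes) and 2 lower (14.7% of all genes), with medians of 0.11 and -0.08. Between the SOX9 lines, 0 members were called in budding organoids by edgeR and 0 by DESeq2 (0.456% of all genes with edgeR, and 1 member with an unadjusted p under 0.05), and 3 in spheroids (13.2% of all genes).

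**Figure D2:**
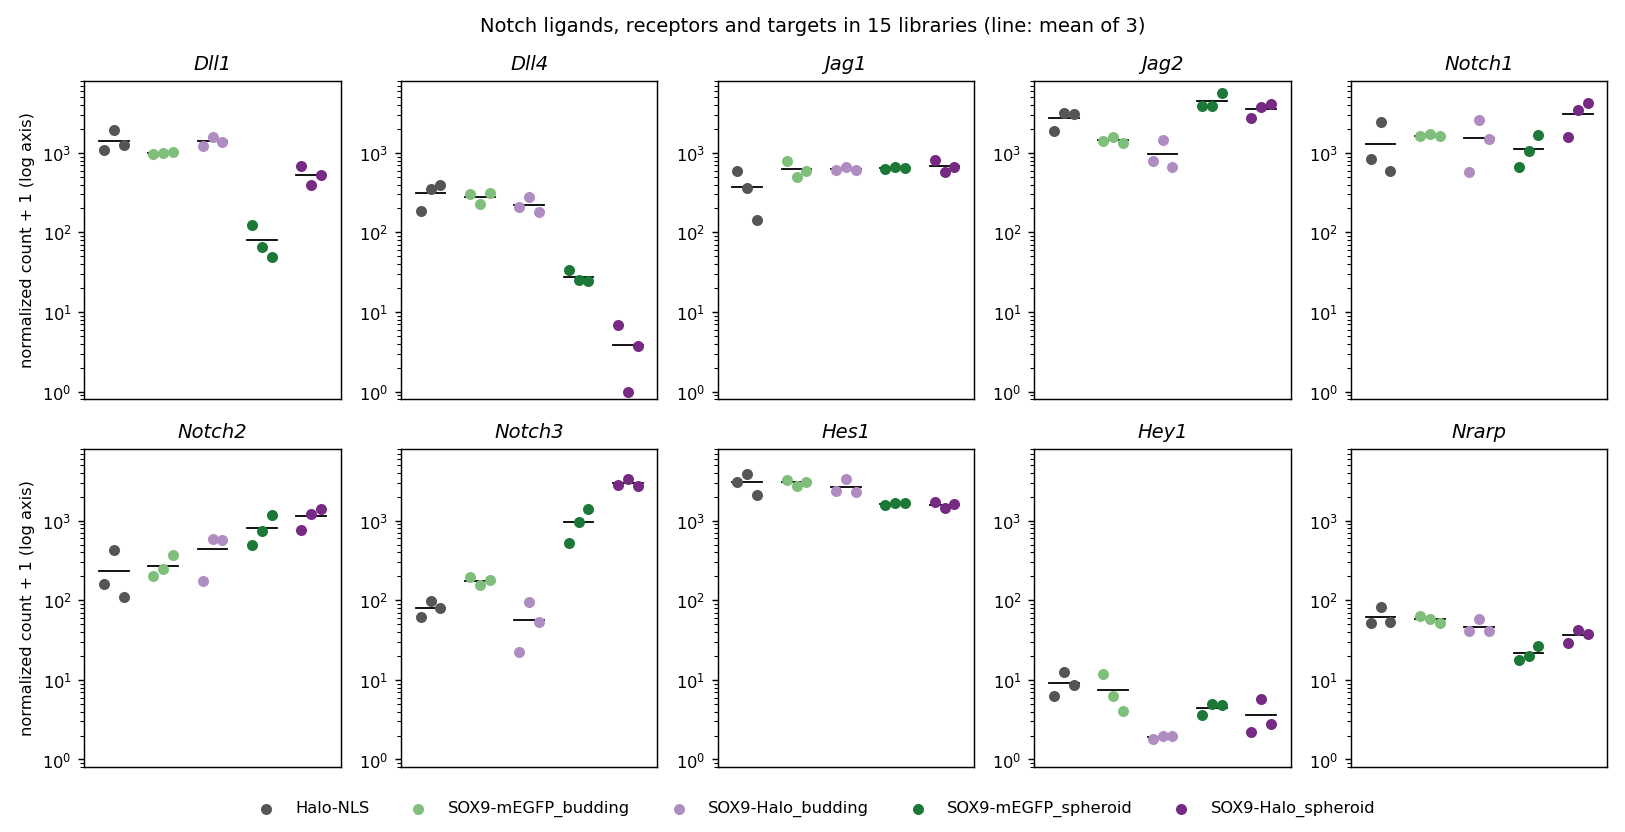
Normalized count plus 1 on a log axis for the 10 members, 1 panel each, in 15 libraries coloured by condition, with a line at the mean of 3. Dll4 reaches 0 in a SOX9-Halo_spheroid library, Notch3 is highest in the SOX9-Halo_spheroid libraries (2757 to 3386), and Hey1 stays near the bottom of the axis throughout.

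Among the ligands, Dll1 (ENSMUSG00000014773, chromosome 17 from 15587276 to 15597134, minus strand), a ligand carried by secretory progenitors, had normalized counts of 1102, 1914 and 1267 in Halo-NLS, 956, 998 and 1028 in SOX9-mEGFP_budding and 1228, 1594 and 1352 in SOX9-Halo_budding. The counts were 123, 65.1 and 47.6 in SOX9-mEGFP_spheroid and 686, 394 and 519 in SOX9-Halo_spheroid. Every spheroid library lay below every other library, and the spheroids of both lines did not overlap. Spheroids relative to budding organoids had a log2 fold change of Dll1 of -3.65 in the SOX9-mEGFP line (standard error 0.35, edgeR adjusted p = 2.13e-06) and -1.39 in the SOX9-Halo line (standard error 0.32, edgeR adjusted p = 0.00238). The latter call was lost without SOX9-Halo_spheroid replicate 2, at -1.26 (edgeR adjusted p = 0.0132), and the call of SOX9-Halo_spheroid relative to Halo-NLS without Halo-NLS replicate 2 (-1.14) or SOX9-Halo_spheroid replicate 2 (-1.26). Of the exon bases of Dll1, 34.8% are shared with genes on the other strand, mainly Fam120b. Because reads were counted without strand, reads there were left out as ambiguous. The summed normalized count of 11 secretory cell markers, measured beside this ligand of secretory cells, was 32392 to 137120 in the 9 Halo-NLS and budding libraries, 63337 to 69321 in SOX9-mEGFP_spheroid and 181 to 312 in SOX9-Halo_spheroid, in which 3 of the 11 had at most 3 reads in every library. In SOX9-mEGFP_spheroid the sum rested on Mmp7, at 37133 to 44544 there and 131 to 1230 in the Halo-NLS and budding libraries, and on Tff3. From budding organoids to spheroids, 6 of the 11 fell and 1, Mmp7, rose in the SOX9-mEGFP line, and 10 fell in the SOX9-Halo line. Their part in the changes of Dll1 and Dll4 was not tested.

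Dll4 (ENSMUSG00000027314, chromosome 2 from 119156170 to 119166443, plus strand), the other DLL ligand of crypt secretory cells, had normalized counts of 187, 348 and 391 in Halo-NLS, 304, 229 and 309 in SOX9-mEGFP_budding and 207, 276 and 180 in SOX9-Halo_budding. It had 32.8, 24.0 and 23.8 in SOX9-mEGFP_spheroid and 5.92, 0 and 2.70 in SOX9-Halo_spheroid, which were 5, 0 and 3 reads. Here the order of both spheroids was the opposite of that of Dll1, with SOX9-Halo_spheroid lowest and no overlap. Dll4 fell by 3.38 on the log2 scale between budding organoids and spheroids in the SOX9-mEGFP line (standard error 0.44, edgeR adjusted p = 3.82e-05) and by 6.29 in the SOX9-Halo line (standard error 0.57, edgeR adjusted p = 4.35e-07). Both calls held in each of the 14 alternatives run for them. Dll4 is also a ligand of blood vessels, and the summed normalized count of 5 endothelial markers was 12.7 to 52.8 in the Halo-NLS and budding libraries and 1.18 to 6.01 in the spheroid libraries. The part of such cells in the levels of Dll4 was not tested. An antisense gene, Gm14207, shares 15.6% of the exon bases of Dll4 and had 3 to 343 reads of its own (median 212). Because reads were counted without strand, reads on the shared bases were left out as ambiguous, which lowers the counts of Dll4.

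The JAG ligands behaved differently. Jag2 (ENSMUSG00000002799, chromosome 12 from 112871421 to 112893437, minus strand) had normalized counts of 1877, 3200 and 3097 in Halo-NLS, 1407, 1580 and 1334 in SOX9-mEGFP_budding and 779, 1454 and 664 in SOX9-Halo_budding, and 3936, 3932 and 5683 in SOX9-mEGFP_spheroid and 2723, 3755 and 4174 in SOX9-Halo_spheroid. In order of the means, SOX9-Halo_budding was lowest and overlapped with SOX9-mEGFP_budding, Halo-NLS lay above both without overlap, and SOX9-Halo_spheroid, which overlapped with Halo-NLS, was followed by SOX9-mEGFP_spheroid, which did not. Jag2 was the 1 member called between SOX9-Halo_budding and Halo-NLS, at -1.50 on the log2 scale (standard error 0.30, edgeR adjusted p = 0.00669). This call was lost with only the 6 libraries compared in the fit (-1.48, edgeR adjusted p = 0.0896) and without any 1 of Halo-NLS replicates 2 and 3 and SOX9-Halo_budding replicates 1 and 3 (-1.40 to -1.26, edgeR adjusted p from 0.0253 to 0.0408). In spheroids relative to budding organoids it rose by 1.65 in the SOX9-mEGFP line (standard error 0.30, edgeR adjusted p = 6.90e-04) and by 1.88 in the SOX9-Halo line (standard error 0.30, edgeR adjusted p = 1.38e-04). Against Halo-NLS, the log2 fold changes of both spheroids were 0.73 (edgeR adjusted p = 0.0526) and 0.38 (edgeR adjusted p = 0.302) and were not called.

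Jag1 (ENSMUSG00000027276, chromosome 2 from 136923373 to 136958693, minus strand) had 595, 363 and 142 normalized counts in Halo-NLS, the widest relative spread among the conditions, and 490 to 814 in the 12 SOX9 libraries. It was called in no comparison. Between budding and spheroid its log2 fold change was 0.04 in the SOX9-mEGFP line (standard error 0.36) and 0.11 in the SOX9-Halo line (standard error 0.36). Without Halo-NLS replicate 1, its rise against Halo-NLS passed the thresholds in SOX9-mEGFP_spheroid (1.36, edgeR adjusted p = 0.0041) and SOX9-Halo_spheroid (1.43, edgeR adjusted p = 0.00293).

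Counts between genes were compared per kilobase of exon that no other gene shares. As a share of the 4 ligands' reads per kb in the same library, which does not depend on the scaling between libraries, Dll1 was the largest in Halo-NLS (44.6%, 48.9% and 40.3%, with Jag2 at 34.8%, 37.4% and 45.1%). Replicate 3 of Halo-NLS was the exception, with more Jag2 than Dll1. In the budding SOX9 libraries, Dll1 took 41.0% to 62.3% and Jag2 14.0% to 32.7%. In the spheroids Jag2 led, with 78.3%, 79.9% and 85.8% in SOX9-mEGFP_spheroid and 52.2%, 70.9% and 68.4% in SOX9-Halo_spheroid. Dll1 had 1.57% to 5.37% there in the SOX9-mEGFP line and 16.2% to 28.8% in the SOX9-Halo line, and Dll4 at most 1.39% in either. The ranges of Dll1 and of Jag2 in the spheroids did not overlap with those in the other 9 libraries.

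**Figure D3:**
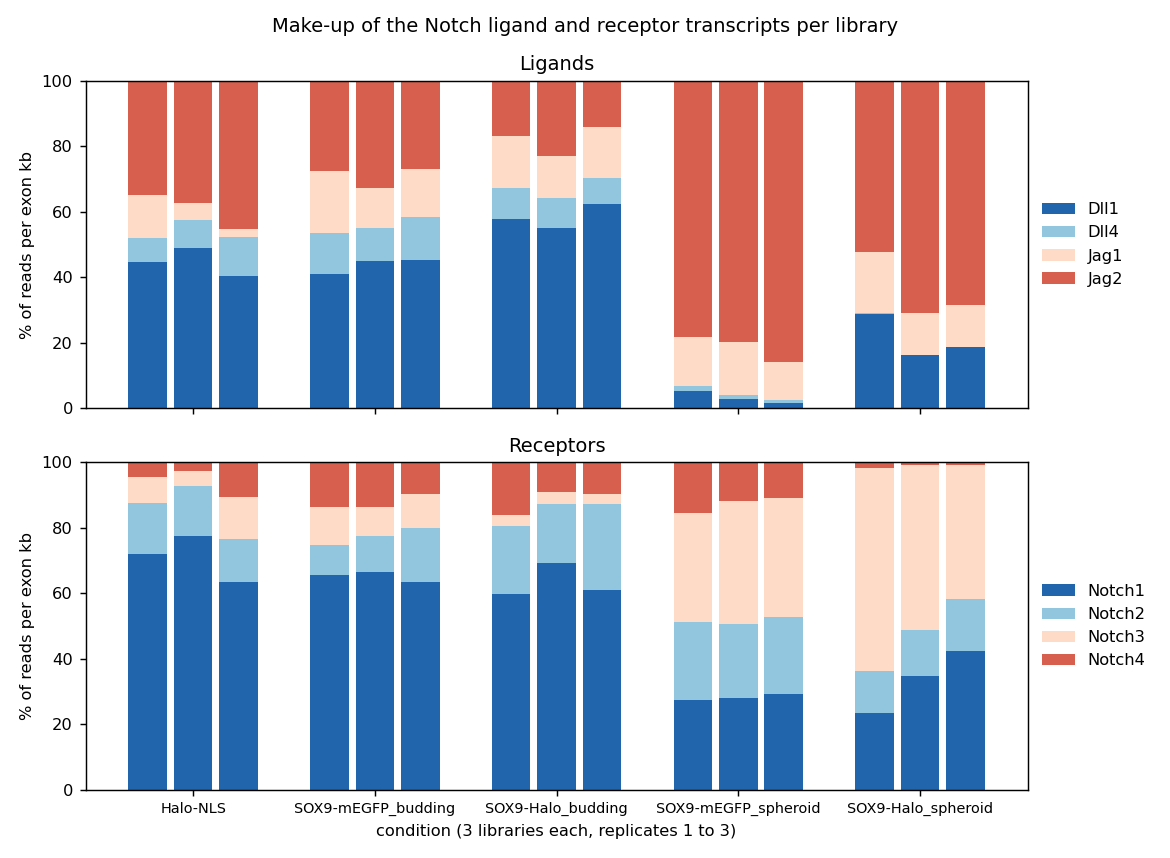
Share of each of 4 ligands (top) and 4 receptors (bottom) in the summed reads per kb of unshared exon, 1 stacked bar per library in percent, grouped by condition. Jag2 makes up 52.2% or more of the ligand reads in every spheroid library, and Notch3 33.2% or more of the receptor reads there, against at most 12.6% in the other libraries.

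Among the receptors, Notch3 (ENSMUSG00000038146, chromosome 17 from 32339794 to 32385893, minus strand) changed most. It had normalized counts of 60.1, 96.4 and 79.2 in Halo-NLS, 193, 155 and 180 in SOX9-mEGFP_budding and 21.5, 94.4 and 51.7 in SOX9-Halo_budding. It had 531, 955 and 1388 in SOX9-mEGFP_spheroid and 2795, 3386 and 2757 in SOX9-Halo_spheroid. In order of the means, SOX9-Halo_budding and Halo-NLS overlapped at the bottom, and SOX9-mEGFP_budding, SOX9-mEGFP_spheroid and SOX9-Halo_spheroid followed with no overlap between neighbours. From budding to spheroid, Notch3 rose by 2.44 on the log2 scale in the SOX9-mEGFP line (standard error 0.42, edgeR adjusted p = 4.26e-04) and by 5.74 in the SOX9-Halo line (standard error 0.49, edgeR adjusted p = 2.67e-07). Against Halo-NLS the log2 fold changes were 3.60 (standard error 0.45, edgeR adjusted p = 1.62e-05) and 5.24 (standard error 0.48, edgeR adjusted p = 4.63e-07), and these 4 calls held in every alternative run, the fit without the length trend included. In SOX9-mEGFP_budding its log2 fold change against Halo-NLS was 1.16 (edgeR adjusted p = 0.0717) and in SOX9-Halo_budding -0.50 (edgeR adjusted p = 0.402). With the length trend removed, the log2 fold changes of Notch3 against Halo-NLS were 0.85 and -0.81 in the budding organoids and 3.20 and 4.91 in the spheroids, SOX9-mEGFP first. Pdgfrb, a defining marker of the pericytes in which Notch3 is best known, had 0 to 3 reads in every spheroid library and 15 to 46 in every other library. The sum of all 6 mesenchymal markers was 18.0 to 19.5 normalized counts in SOX9-mEGFP_spheroid and 73.8 to 78.2 in SOX9-Halo_spheroid, against 22.3 to 101 in the other libraries. In SOX9-Halo_spheroid, where Notch3 was highest, the sum was led by Des, a gene of smooth muscle and pericytes, at 27.2 to 55.8 normalized counts (0 to 8.80 in all other libraries), and by Col1a1, at 11.4 to 37.9 (1.31 to 14.3 in all other libraries). The part of such cells in the level of Notch3 was not tested.

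Notch2 (ENSMUSG00000027878, chromosome 3 from 97920800 to 98057677, plus strand), which acts with Notch1 in crypt progenitors, had normalized counts of 159, 425 and 111 in Halo-NLS, 199, 249 and 366 in SOX9-mEGFP_budding and 176, 581 and 566 in SOX9-Halo_budding. It had 497, 747 and 1189 in SOX9-mEGFP_spheroid and 759, 1212 and 1424 in SOX9-Halo_spheroid. The SOX9-Halo_spheroid libraries lay above every Halo-NLS and budding library, and the SOX9-mEGFP_spheroid libraries overlapped with those of SOX9-Halo_budding. Relative to Halo-NLS, edgeR called it in SOX9-Halo_spheroid, at 2.29 on the log2 scale (standard error 0.54, edgeR adjusted p = 0.0027). With the length trend removed it was 1.80 (edgeR adjusted p = 0.0102), and the call was also lost without Halo-NLS replicate 1 (2.08), Halo-NLS replicate 3 (1.95) or SOX9-Halo_spheroid replicate 3 (2.06). In SOX9-mEGFP_spheroid relative to Halo-NLS the log2 fold change was 1.81 (standard error 0.53, edgeR adjusted p = 0.0114) and was not called. There it was called by DESeq2 (1.77, DESeq2 adjusted p = 0.00351) and by edgeR with library sizes alone (2.07), without the filter on low counts (1.83), with the replicate block (1.79) and without Halo-NLS replicate 2 (2.59), and with the length trend removed it was 1.19 (edgeR adjusted p = 0.0682). The log2 fold change of Notch2 between budding organoids and spheroids was 1.58 in the SOX9-mEGFP line (edgeR adjusted p = 0.0353) and 1.36 in the SOX9-Halo line (edgeR adjusted p = 0.0485). In the SOX9-Halo line, where the replicate numbers were taken to pair the libraries, the fit with the number as a block called it, at 1.46 over all libraries (edgeR adjusted p = 0.00905) and 1.45 within this line (edgeR adjusted p = 0.00259). The block over all libraries includes conditions whose numbers were not taken to pair. In the SOX9-mEGFP line, whose numbers were not taken to pair, the block within the line also called Notch2 (1.51, edgeR adjusted p = 0.000987).

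Notch1 (ENSMUSG00000026923, chromosome 2 from 26347915 to 26406675, minus strand), the main receptor of the crypt, varied widely between replicates of the same condition. Its normalized counts were 835, 2435 and 595 in Halo-NLS, 1635, 1717 and 1606 in SOX9-mEGFP_budding and 572, 2557 and 1505 in SOX9-Halo_budding, and 657, 1051 and 1669 in SOX9-mEGFP_spheroid and 1571, 3477 and 4240 in SOX9-Halo_spheroid. The ranges of every pair of conditions overlapped, and Notch1 was called in no comparison. Its log2 fold change from budding to spheroid was -0.55 in the SOX9-mEGFP line (standard error 0.56) and 1.00 in the SOX9-Halo line (standard error 0.56). With the length trend removed, the log2 fold change in SOX9-Halo_spheroid relative to Halo-NLS was 0.63 rather than 1.26, and in SOX9-mEGFP_spheroid -1.07 rather than -0.20, and none of these was called. It passed the thresholds in SOX9-Halo_spheroid relative to Halo-NLS without Halo-NLS replicate 2, the library with the highest count in that condition (2.12, edgeR adjusted p = 0.00808). Without the filter on low counts, Notch1 also passed in that comparison (1.30, edgeR adjusted p = 7.75e-05). The same fit called it in the SOX9-Halo line (1.02, edgeR adjusted p = 0.00369) and between the spheroids (1.47, edgeR adjusted p = 9.98e-06).

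The receptors were also measured as shares of the 4 receptors' reads per kb within a library, with Notch4 included. Notch1 had 72.0%, 77.4% and 63.3% in Halo-NLS and 59.7% to 69.3% in the 6 budding SOX9 libraries, and 27.5%, 27.9% and 29.2% in SOX9-mEGFP_spheroid. Its shares in SOX9-Halo_spheroid were 23.4%, 34.8% and 42.2%. Notch3 had 7.73%, 4.57% and 12.6% in Halo-NLS, 8.92% to 11.6% in SOX9-mEGFP_budding and 3.13% to 3.81% in SOX9-Halo_budding. It rose to 33.2%, 37.8% and 36.2% in SOX9-mEGFP_spheroid and 62.1%, 50.6% and 40.9% in SOX9-Halo_spheroid, above every other library. Notch2 differed between the spheroids, with 22.6% to 23.8% in SOX9-mEGFP_spheroid and 12.9% to 16.2% in SOX9-Halo_spheroid. Per kb of exon, Notch3 was thus the most abundant receptor in SOX9-Halo_spheroid replicates 1 and 2 and in all 3 SOX9-mEGFP_spheroid libraries, and Notch1 in SOX9-Halo_spheroid replicate 3 by a small margin.

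Among the target genes, Hes1 (ENSMUSG00000022528, chromosome 16 from 29882134 to 29886643, plus strand), the repressor that holds progenitors in the absorptive fate, had normalized counts of 3113, 3900 and 2099 in Halo-NLS, 3248, 2764 and 3112 in SOX9-mEGFP_budding and 2399, 3364 and 2275 in SOX9-Halo_budding. It had 1559, 1663 and 1694 in SOX9-mEGFP_spheroid and 1705, 1449 and 1603 in SOX9-Halo_spheroid. All 6 spheroid libraries lay below all 9 others, and both spheroids overlapped. From budding to spheroid its log2 fold change was -0.89 in the SOX9-mEGFP line (standard error 0.22, edgeR adjusted p = 0.00625) and -0.76 in the SOX9-Halo line (standard error 0.22, edgeR adjusted p = 0.0118), both under the fold threshold. Between the spheroids it was -0.05 (standard error 0.22). Without Halo-NLS replicate 3, Hes1 passed the fold threshold against Halo-NLS, at -1.10 in SOX9-mEGFP_spheroid (edgeR adjusted p = 5.54e-04) and -1.15 in SOX9-Halo_spheroid (edgeR adjusted p = 3.01e-04).

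Nrarp (ENSMUSG00000078202, chromosome 2 from 25070770 to 25073351, plus strand), a feedback inhibitor that binds the Notch nuclear complex, had 51.0, 80.3 and 52.8 normalized counts in Halo-NLS, 62.0, 57.1 and 51.4 in SOX9-mEGFP_budding and 40.6, 56.4 and 40.0 in SOX9-Halo_budding. It had 16.9, 19.0 and 25.7 in SOX9-mEGFP_spheroid and 28.4, 41.6 and 36.9 in SOX9-Halo_spheroid. The SOX9-mEGFP_spheroid libraries were the lowest of all, and SOX9-Halo_spheroid overlapped with SOX9-Halo_budding. Nrarp fell by 1.46 on the log2 scale from budding to spheroid in the SOX9-mEGFP line (standard error 0.29, edgeR adjusted p = 0.00144), a call lost without the filter on low counts (-1.46, edgeR adjusted p = 0.0101), and had a log2 fold change of -0.35 in the SOX9-Halo line (standard error 0.28, edgeR adjusted p = 0.358). The difference of 1.11 between these changes was not called (standard error 0.41, edgeR adjusted p = 0.094). Of its exon bases, 86.5% are shared with antisense genes (Gm13387 and Gm38287, at most 22 and 4 reads), which leaves 0.349 kb in which reads could be counted, and its level is understated for that reason.

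Hey1 (ENSMUSG00000040289, chromosome 3 from 8726956 to 8732385, minus strand), another repressor of the same family, had 4, 10 and 6 reads in Halo-NLS, 9, 5 and 4 in SOX9-mEGFP_budding, 1, 1 and 1 in SOX9-Halo_budding, 3, 4 and 4 in SOX9-mEGFP_spheroid and 1, 5 and 2 in SOX9-Halo_spheroid. It was too low to pass the filter. In the fits that tested it, edgeR without the filter and DESeq2, its log2 fold change in SOX9-Halo_budding relative to Halo-NLS was -3.18 to -2.95 (adjusted p from 0.033 to 0.0439), and it was called in no comparison. The total of 3 reads in SOX9-Halo_budding against 20 in Halo-NLS is a ratio of 9.07, with a 95% counting interval from 2.69 to 47.7 that covers counting error only. Per kb of unshared exon, the means in Halo-NLS were 920 ± 274 normalized counts for Hes1, 176 ± 47.1 for Nrarp and 1.79 ± 0.70 for Hey1 (SD, n = 3).

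**Figure D4:**
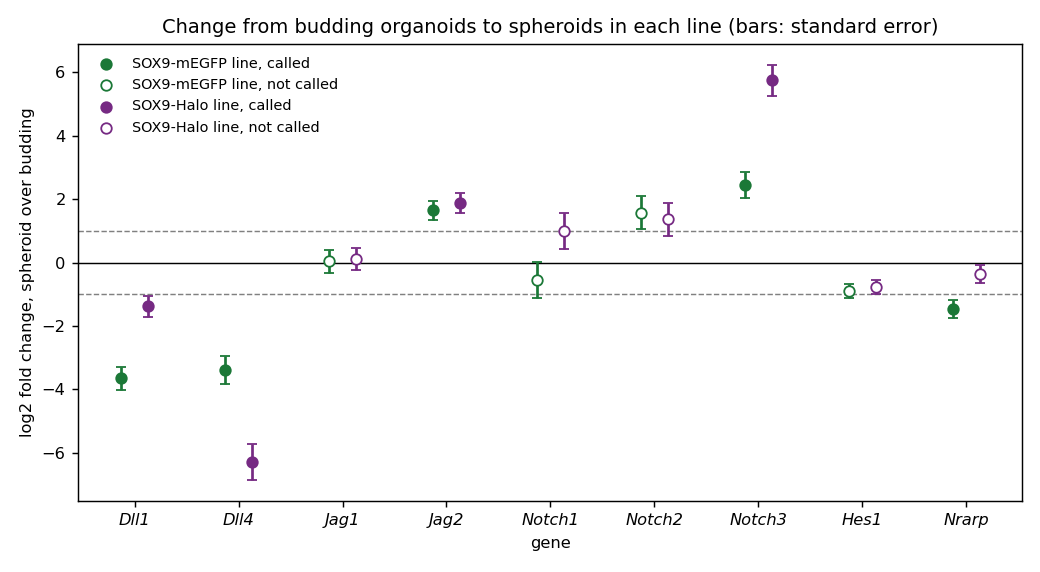
Log2 fold change from budding organoids to spheroids with its standard error, for the 9 tested members on the x axis, in the SOX9-mEGFP line (green) and the SOX9-Halo line (purple); filled points were called and dashed lines mark a fold of 2. Dll1 and Dll4 lie below and Jag2, Notch2 and Notch3 above the dashed lines in both lines, with Notch2 called in neither. Dll1 is lower in the SOX9-mEGFP line (-3.65 against -1.39) and Notch3 higher in the SOX9-Halo line (5.74 against 2.44).

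How far members changed as organoids became spheroids differed between the lines for 2 members by edgeR and 3 by DESeq2. This difference was tested as an interaction, in which 7.39% of all genes were called. For Dll1 it was 2.27 on the log2 scale, SOX9-Halo minus SOX9-mEGFP (standard error 0.45, edgeR adjusted p = 0.00303), a smaller fall in the SOX9-Halo line. The Dll1 call was lost without SOX9-Halo_budding replicate 1 (2.19, edgeR adjusted p = 0.0109) and without SOX9-mEGFP_spheroid replicate 2 (2.13, edgeR adjusted p = 0.0127). For Notch3 the difference was 3.30 (standard error 0.59, edgeR adjusted p = 0.00138), a larger rise in the SOX9-Halo line, and it stayed called in each of 19 alternatives (2.90 to 3.92). For Dll4 it was -2.91 (standard error 0.71, edgeR adjusted p = 0.0118) and was not called by edgeR. DESeq2 called it (-2.96, DESeq2 adjusted p = 5.20e-04), as did edgeR without the filter on low counts (-2.91) and without SOX9-Halo_spheroid replicate 1 (-3.82, edgeR adjusted p = 0.00485).

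The spheroids of both lines were also compared directly. Dll1 was 2.75 higher on the log2 scale in SOX9-Halo_spheroid than in SOX9-mEGFP_spheroid (standard error 0.34, edgeR adjusted p = 2.36e-05). Dll4 was lower, at -3.26 (standard error 0.58, edgeR adjusted p = 6.64e-04), and Notch3 was higher, at 1.64 (standard error 0.41, edgeR adjusted p = 0.00786). The Dll1 and Dll4 calls held in all 13 alternatives. The Notch3 call held in 8 of 13 and was lost without any 1 of the 6 libraries other than SOX9-mEGFP_spheroid replicate 3 (1.33 to 1.68, edgeR adjusted p from 0.0169 to 0.0415). SOX9-Halo and SOX9-mEGFP spheroids differ in tag, second transgene and passage, which cannot be told apart here.

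A list of 46 other Notch pathway genes was examined, of which 41 were tested. Between budding organoids and spheroids, the SOX9-mEGFP line had 3 of them higher and 4 lower (median log2 fold change 0.09), and in the SOX9-Halo line 5 were higher and 7 lower (median -0.14). Over all genes tested, the shares given above for the same comparisons come to 8.55% higher and 7.88% lower in the SOX9-mEGFP line and 10.5% and 14.7% in the SOX9-Halo line, so that the pathway counts were near the background. Both medians were the same with genes of at most 3 counts set to their counting ratio or bound. Relative to Halo-NLS, 10 were higher and 8 lower in SOX9-mEGFP_spheroid and 7 higher and 8 lower in SOX9-Halo_spheroid (15.3% and 12.1%, and 13.6% and 15.3%, of all genes). Of the 3817 genes with more than 8 kb of exon, 24% were higher and 5.5% lower in SOX9-mEGFP_spheroid, and 18.5% and 8.51% in SOX9-Halo_spheroid. The pathway list holds genes of that length, such as Adam17 with 8.55 kb. The part of transcript length in the pathway counts was not tested. In each kind of budding organoid 1 pathway gene was higher than in Halo-NLS, the receptor Notch4, and 0 were lower. Of all genes, 2.76% were called in SOX9-mEGFP_budding and 3.75% in SOX9-Halo_budding, in either direction. Notch4 has 8.85 kb of annotated exon, and no value with the length trend removed is given for it.

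The pathway genes called from budding to spheroid in the SOX9-mEGFP line, Dtx1 aside, were also called in the same direction in the SOX9-Halo line. They were Maml2, Dtx3, Dll3, Dner, Hes2 and Mfng, given here by role with those called in 1 line. Of 7 genes of the nuclear complex, the coactivator Maml2 was called from budding to spheroid in each line. Its normalized counts were 0 to 20.5 in the 9 Halo-NLS and budding libraries and 87.9 to 244 in the 6 spheroid libraries, and the log2 fold change was 4.27 in the SOX9-mEGFP line (standard error 0.75, edgeR adjusted p = 4.71e-04) and 3.88 in the SOX9-Halo line (standard error 0.72, edgeR adjusted p = 4.65e-04). Its partner Rbpj was not called there and had 167 to 855 normalized counts over all libraries. Of 8 inhibitors and turnover factors, the Deltex family gene Dtx3 rose by 2.63 in the SOX9-mEGFP line (standard error 0.29, edgeR adjusted p = 9.22e-06) and 2.42 in the SOX9-Halo line (standard error 0.29, edgeR adjusted p = 7.39e-06), from 36.4 to 90.7 normalized counts in the other libraries to 246 to 475 in spheroids. In the SOX9-Halo line, the endocytic inhibitor Numb fell by 1.55 (standard error 0.26, edgeR adjusted p = 1.83e-04) and its relative Numbl rose by 2.33 (standard error 0.32, edgeR adjusted p = 2.77e-05). The gene Papln overlaps Numb on the other strand and shares exon bases with it.

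Among the other ligands and the other receptor, Dll3, which acts inside the cell, and Dner fell in both lines at low counts. Dll3 had 3 reads in all in each kind of spheroid, against 43 in SOX9-mEGFP_budding and 55 in SOX9-Halo_budding, a ratio of 14.8 with a 95% counting interval of 4.74 to 74.7 and of 16.7 with an interval of 5.42 to 83.4. Its call was lost in the SOX9-mEGFP line without SOX9-mEGFP_budding replicate 3 (fitted log2 fold change -3.04), SOX9-mEGFP_spheroid replicate 2 (-3.71) or SOX9-mEGFP_spheroid replicate 3 (-3.15). In the SOX9-Halo line it was lost with the replicate number as a block within the line (-4.03) and with only the libraries compared (-3.97). Dner had 90 reads in SOX9-Halo_budding and 0 in SOX9-Halo_spheroid, at least 9.25-fold lower against a floor of 3 counts per library, and 86 and 3 reads in the SOX9-mEGFP line (ratio 29.6, interval 9.81 to 147). The Dner call in the SOX9-Halo line was lost without SOX9-Halo_budding replicate 2 (fitted log2 fold change -7.15). Notch4 fell in the SOX9-Halo line, by 1.57 (standard error 0.35, edgeR adjusted p = 0.00195), from 111, 237 and 169 normalized counts to 78.2, 49.2 and 46.8. That call was lost without SOX9-Halo_budding replicate 2 (-1.27), SOX9-Halo_spheroid replicate 2 (-1.51) or SOX9-Halo_spheroid replicate 3 (-1.49), and with the replicate number as a block within the line (-1.58, edgeR adjusted p = 0.0133). In the SOX9-mEGFP line it had 243, 254 and 173 before and 265, 315 and 445 after. Of 5 sugar transferases that modify Notch, Mfng fell in both lines, with log2 fold changes of -3.28 (standard error 0.75, edgeR adjusted p = 0.00364) and -4.53 (standard error 0.93, edgeR adjusted p = 0.00104). The first of these calls was lost without SOX9-mEGFP_budding replicate 3 (-2.97), SOX9-mEGFP_spheroid replicate 1 (-3.49) or SOX9-mEGFP_spheroid replicate 2 (-2.76). Poglut1 rose by 1.12 in the SOX9-Halo line (standard error 0.20, edgeR adjusted p = 3.19e-04). Of 10 genes of receptor cleavage, 1 was called from budding to spheroid, the gamma-secretase subunit Aph1b, which rose by 1.62 in the SOX9-Halo line (standard error 0.27, edgeR adjusted p = 1.54e-04).

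Of the 7 other HES and HEY genes, 3 were tested. Hes2 fell in both lines. It had 202, 216 and 140 normalized counts in SOX9-Halo_budding and 1 read in all in SOX9-Halo_spheroid, a ratio of 563 with a 95% counting interval from 101 to 22287. In the SOX9-mEGFP line it fell by 3.41 on the log2 scale (standard error 0.49, edgeR adjusted p = 8.58e-05). Hes6, an antagonist of Hes1, fell by 1.18 in the SOX9-Halo line (standard error 0.22, edgeR adjusted p = 5.32e-04). The Deltex gene Dtx1 differed most between the lines, with 243, 183 and 191 normalized counts in SOX9-mEGFP_spheroid and 0 to 5.85 in all 12 other libraries. The overlapping gene Rasal1, which shares 30.5% of the exon bases of Dtx1 on the other strand, ranged from 14 to 2757 reads.

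**Figure D5:**
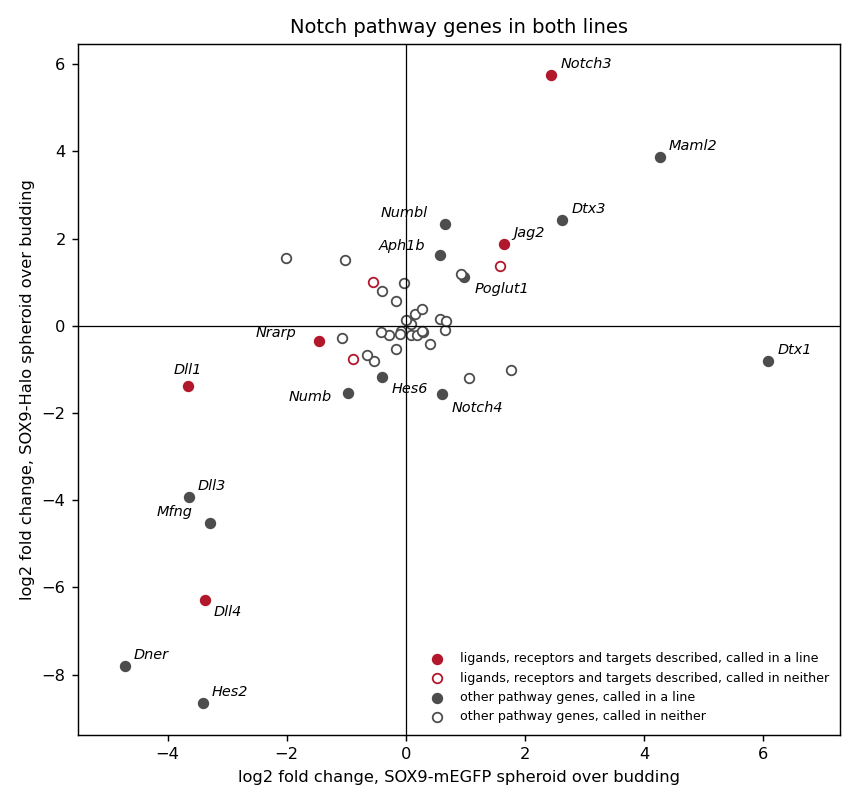
Log2 fold change from budding to spheroid in the SOX9-mEGFP line (x axis) and the SOX9-Halo line (y axis) for the 9 tested members (red) and 41 other pathway genes (grey); filled points were called in at least 1 line and are named. Maml2, Dtx3, Jag2 and Notch3 lie at the upper right and Dll1, Dll3, Dll4, Dner, Hes2 and Mfng at the lower left, and fitted values of genes at or near 0 counts, such as Dner and Hes2, depend on the prior count of the fit.

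Pearson correlation over the 15 libraries was computed on log2 CPM, which is reads scaled to the library total after adjustment by TMM. The genes whose levels ran most like those of Dll4 and Notch3 were sought among 11054 genes whose normalized count averaged 100 or more. For Notch3 they were Pitpnm3 (r = 0.986), Endod1 (r = 0.979) and Unc13d (r = 0.974). For Dll4 they were Pcsk5 (r = 0.988), Abcg8 (r = 0.985) and Aldh1b1 (r = 0.984). The libraries share 5 conditions, so that any gene with the same order of conditions scores high, and these values are descriptions.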

How the data were processed

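The authors sequenced poly-A RNA from 15 organoid libraries with a kit that does not mark strand, trimmed reads with cutadapt 4.5, aligned them to mm39 with STAR, keeping unique alignments, and counted reads per gene with HTSeq 2.0.2 in union mode without strand. The Ensembl release is not given in the sources used here. The deposited values are raw read counts, 1 table per library, and every table was used. A read on bases shared by several genes was left out as ambiguous by the authors, which lowers the counts of overlapping genes. The 10 members and the pathway and marker lists were chosen with earlier results of these data known. Genes named from the pathway list are those called in the comparison, by role.

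Counts were scaled by TMM and tested with edgeR 4.0.16 (R 4.3.3) after a filter on low counts, in 1 fit over all 15 libraries with 1 coefficient per condition (common biological coefficient of variation 0.302). p-values measure the spread between these samples, which may be technical. Depth limits genes of few reads, and intervals and floors of 3 counts cover counting error only. Alternatives were DESeq2 1.42.0, RLE scaling, library sizes alone, no filter, fits of only the libraries compared, a replicate block, leaving out each library, and, added after seeing the data, removal of the length trend. The code was tested on simulated data. Exon lengths, overlaps and promoter sequences were taken from GRCm39 with GENCODE M39, which held 78168 of the 78298 gene identifiers. The promoter of 1 member is not reported here.

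Whether equal replicate numbers pair the libraries was checked by the correlation of their deviations from the condition means. For SOX9-Halo_budding and SOX9-Halo_spheroid all 3 pairs exceeded 0.1 (0.275, 0.162 and 0.24), and the numbers were taken to pair them. For the other pairs of conditions at least 1 did not. The values were 0.041, 0.039 and 0.196 in the SOX9-mEGFP line and 0.362, 0.646 and 0.061 for Halo-NLS with SOX9-Halo_budding. No label says what a replicate number marks, so that pairing in these conditions was neither shown nor excluded.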

Additional observations from a re-analysis of the deposited data

Results flagged for a closer look

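Each value here is a difference between the SOX9 lines in the change from budding organoids to spheroids, SOX9-Halo minus SOX9-mEGFP on the log2 scale, that was called by the interaction test of edgeR with Benjamini-Hochberg adjustment over all genes. Among the members these were Dll1, at 2.27 (edgeR adjusted p = 0.00303), and Notch3, at 3.30 (edgeR adjusted p = 0.00138). Among the other pathway genes, the receptor Notch4 differed by -2.19 (edgeR adjusted p = 0.00637), with a fall in the SOX9-Halo line and normalized counts of 173 to 254 before and 265 to 445 after in the SOX9-mEGFP line. The gamma-secretase subunit Aph1c differed by 3.58 (edgeR adjusted p = 0.00574), with 3.55 to 7.01 normalized counts in SOX9-mEGFP_spheroid and 44.1 to 81.7 in SOX9-Halo_spheroid. Dtx1 differed by -6.90 (edgeR adjusted p = 1.44e-04) and Hes2 by -5.25 (edgeR adjusted p = 0.00261), and both fitted values depend on the prior count because Hes2 had 1 read in all in SOX9-Halo_spheroid and Dtx1 at most 5.85 normalized counts outside SOX9-mEGFP_spheroid.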

How the results depend on the processing

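The tally for the members covers every comparison that includes spheroids, and Jag2 and Notch3 alone in the comparisons among Halo-NLS and the budding organoids. In it, 791 values kept their direction and their side of the thresholds under the alternatives run, and 25 passed the thresholds only under an alternative. Another 21 lost a call and 15 turned direction, none of the last called. Outside it, members such as Dll1 (-0.19 to 0.26) and Notch1 (-0.42 to 1.12) in SOX9-Halo_budding relative to Halo-NLS also turned direction. The cause was not tested. Without the filter on low counts, 1 member was called in SOX9-mEGFP_budding relative to Halo-NLS (Notch3), 1 between the budding lines (Notch3) and 4 in the difference between the lines (Dll1, Dll4, Notch1 and Notch3). In the same order, that fit called 1991, 280 and 1881 of 52932 genes. With only the libraries compared, 0 members and 5 of 15266 genes were called in SOX9-Halo_budding relative to Halo-NLS. Leaving out 1 library at a time gave 0 to 1 members called in that comparison, with 201 to 2370 of all genes called. In the difference between the lines it gave 1 to 3 members, with 917 to 1255 of all genes called. Of the members, 1 was left there without SOX9-Halo_budding replicate 1 or SOX9-mEGFP_spheroid replicate 2 (Notch3).

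Values that turned direction lay close to 0 or varied between replicates. With library sizes alone, Notch1 in SOX9-mEGFP_spheroid relative to Halo-NLS was 0.07, and leaving out 1 library gave -0.61 to 0.66. Leaving out 1 library moved Jag1 from -0.13 to 0.25 in the SOX9-mEGFP line, from -0.03 to 0.17 in the SOX9-Halo line, from -0.08 to 0.18 between the spheroids and from -0.14 to 0.19 in the difference between the lines. Hes1 between the spheroids ranged from -0.10 to 0.01 and Notch2 in the difference between the lines from -0.59 to 0.14.

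With the replicate number as a block, Notch2 passed the thresholds in the SOX9-Halo line, at 1.46 (edgeR adjusted p = 0.00905). In the SOX9-mEGFP line, where the numbers do not pair the libraries, the block within the line called Notch2 (1.51) and lost Nrarp (-1.49). With library sizes alone, the median log2 fold change of all genes relative to Halo-NLS was 0.269 to 0.308 rather than -0.01 to 0.03, and the genes called higher and lower became 620 and 108 rather than 350 and 134 in SOX9-mEGFP_budding, 1068 and 109 rather than 438 and 221 in SOX9-Halo_budding, 3333 and 1500 rather than 2690 and 2133 in SOX9-mEGFP_spheroid and 3102 and 2229 rather than 2392 and 2682 in SOX9-Halo_spheroid. With an adjusted p of up to 0.05 as the sole threshold, 2640, 3326 and 188 genes passed in SOX9-mEGFP_budding and SOX9-Halo_budding relative to Halo-NLS and between the budding lines. Over the alternatives that kept the thresholds, the genes called ranged from 103 to 2184 in SOX9-mEGFP_budding (484 as reported), from 5 to 2370 in SOX9-Halo_budding (659 as reported) and from 19 to 280 between the budding lines (80 as reported).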

Other observations

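Notch signalling restrains the genes of secretory fate. Of 4 examined, 3 were called lower in SOX9-Halo_spheroid than in SOX9-mEGFP_spheroid (Atoh1, Neurog3 and Spdef) and 0 higher, where 13.2% of all genes were called in either direction. Gfi1 had the other order, with mean normalized counts of 26.3 in SOX9-mEGFP_spheroid and 47.3 in SOX9-Halo_spheroid. Atoh1, a regulator of secretory cells, had normalized counts of 618, 555 and 564 in SOX9-mEGFP_budding and 335, 244 and 340 in SOX9-mEGFP_spheroid, without overlap. Its log2 fold change there was -0.92 (standard error 0.28, edgeR adjusted p = 0.0242, not called), and it had 205 to 251 in Halo-NLS. It had 2 reads in all in SOX9-Halo_spheroid, a ratio of 464 between the spheroids with a 95% counting interval of 128 to 3836. Dll1 had the opposite order, with the higher level in SOX9-Halo_spheroid, and Dll4 the same order as Atoh1. Neurog3, the regulator of endocrine progenitors, fell in the SOX9-mEGFP line by 3.91 on the log2 scale (standard error 0.53, edgeR adjusted p = 5.70e-05) and had 1 read in all in SOX9-Halo_spheroid. Spdef, a factor of goblet and Paneth cells, had log2 fold changes of -1.51 (standard error 0.30, edgeR adjusted p = 0.00124) in the SOX9-mEGFP line and -2.71 (standard error 0.31, edgeR adjusted p = 5.13e-06) in the SOX9-Halo line. Gfi1, which acts downstream of Atoh1, fell in the SOX9-mEGFP line, by 2.24 (standard error 0.38, edgeR adjusted p = 3.82e-04), and its log2 fold change in the SOX9-Halo line was -1.19 (edgeR adjusted p = 0.0166).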
